A study of Mus musculus with 18 samples.

Results

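The genes of the tubulin family and of the enzymes that modify tubulin were examined in round spermatids (RS), the haploid germ cells that have left meiosis and have not yet elongated. A member was any gene of the count table whose symbol begins with Tuba, Tubb, Tubd, Tube or Tubg, with Ttll or Agbl and a number, or is Ttl, with pseudogenes left out. The rule found 44 members among 54232 genes: 8 alpha tubulins, 8 beta tubulins, 4 gamma, delta and epsilon tubulins, 5 gamma tubulin complex proteins, 9 glutamylases, 3 glycylases, 5 deglutamylases, and the tyrosine ligase Ttl together with Ttll12. It also matched 3 pseudogenes, which were set aside. RS had been prepared on a BSA gradient from testes of mice 75 to 85 days old of 3 genotypes. WT mice carry the normal gene. GRTH-KO (KO) mice lack GRTH, the RNA helicase encoded by Ddx25. In GRTH-KI (KI) mice, by the study's account, a human GRTH gene with a missense mutation was knocked in and the phosphorylated form of the helicase is lost. Total RNA was sequenced without polyA selection in 6 libraries per genotype, 18 in all. The sources used here name no cell type to which either allele is restricted, and the labels do not say that libraries of a genotype came from separate mice, so p-values may measure only technical spread.

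Alpha and beta tubulin form the dimers from which microtubules are built, and gamma tubulin with its complex proteins starts new microtubules. The tails of alpha and beta tubulin carry chains of glutamate or glycine that Ttll enzymes add, and Agbl enzymes, also called cytosolic carboxypeptidases, shorten the glutamate chains. Alpha tubulin can also lose its last tyrosine, which Ttl puts back. In spermatids these microtubules form the manchette, a sleeve around the nucleus during elongation, and the axoneme of the flagellum, where polyglutamylation and polyglycylation are abundant.

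The 3' ends of the coding sequences are shown first, because the modified tails are encoded there and the alpha tubulins shown differ in their last codon. Each sequence is the last 20 sense codons and the stop codon, from GENCODE M21 transcripts on GRCm38, with the last sense codon in capitals. The first pair belong to the alpha tubulins with the most counts per length, the next pair to alpha tubulins that were lower in both mutants, and the last to the leading beta tubulin.
Tuba3a, chr6:125278358-125278420, minus strand: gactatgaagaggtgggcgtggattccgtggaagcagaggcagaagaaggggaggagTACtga
Tuba3b, chr6:145621325-145621387, plus strand: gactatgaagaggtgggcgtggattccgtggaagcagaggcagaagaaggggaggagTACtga
Tuba4a, chr1:75215622-75215684, minus strand: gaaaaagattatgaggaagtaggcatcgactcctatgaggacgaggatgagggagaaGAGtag
Tuba8, chr6:121226017-121226079, plus strand: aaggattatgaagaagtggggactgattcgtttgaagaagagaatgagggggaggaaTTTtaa
Tubb4b, chr2:25222308-25222370, minus strand: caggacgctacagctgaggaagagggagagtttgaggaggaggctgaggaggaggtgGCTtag
Over these 63 bases Tuba3a and Tuba3b differ at 0 positions, Tuba3a differs from Tuba4a at 34 and from Tuba8 at 32, and Tuba4a differs from Tuba8 at 37. Tuba3a and Tuba3b end in a tyrosine codon, Tuba4a in a glutamate codon and Tuba8 in a phenylalanine codon. Tuba1c, not shown here but also lower in both mutants, ends in a tyrosine codon. So do Tuba1a, called lower in KO alone, and Tuba1b, not called. Tubal3, not called in either mutant, ends in a phenylalanine codon. The last codon thus did not separate the lower alpha tubulins from the others. Among the last 20 codons, glutamate is encoded 8 times in Tuba3a, Tuba3b, Tuba4a and Tuba8 and 10 times in Tubb4b.

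Some members resemble each other so closely that reads can be lost. Of the distinct 50-base words in a member's transcripts, the share found in no gene at another place was 35.8% for Tuba1a, 25.7% for Tuba1b, 47.3% for Tuba1c, 66.4% for Tuba3a, 70.5% for Tuba3b, 62.2% for Tubb4b, 50.4% for Tubb2a and 34.4% for Ttll2. It was above 90% for 33 of the 44 members, Tuba4a, Tuba8, Ttll10, Ttll1 and Tubb6 among them. In GENCODE M21, same-strand exons of other genes cover 26.2% of Tuba1a exon bases, 22.7% of Tuba1b and 28.2% of Ttll2. The authors counted uniquely assigned reads, so levels of the less distinct members are uncertain. How far the shared words or exons moved their counts was not tested. The pseudogene Tubb4b-ps1, which shares 32.4% of the words of Tubb4b, had 560 to 1876 counts per library.

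Library totals ran from 18766971 to 26776555 counts. Levels below are normalized CPM, that is counts over library sizes scaled by edgeR's TMM factors, and levels compared between genes are CPM per kilobase of exon. Ddx25 lay between 538 and 607 CPM in WT and between 47.7 and 90.9 CPM in KO. In KI its median was 0.340 CPM, by alignment to the mouse genome, which need not count a transcript of the human gene. The library labelled KI 4, however, held 56.9 CPM, within the KO range and against its label. A pair index of count differences, in which 1 stands for counting noise, was lowest over all pairs for that library and KO 2 (1.59). A further 6 pairs, all within a genotype, had an index of 3.001 or less where every other pair had at least 4.62. Such pairs may not be independent, so the calls were repeated with pairs summed and the library labelled KI 4 left out. Of the 8 markers of RS, 2 were lower in KO and 3 in KI, with a summed median that went from 1441 CPM in WT to 1044 in KO and 945 in KI. Pgk2, lower in both mutants, made up the largest part of the WT sum. Its WT median of 600 CPM stood against medians of 275 for KO and 223 for KI. Catsper3 was also lower in both and Tssk1 in KI alone. Acrv1, Spaca1, Acr, Izumo1 and Spata9 were not called in either mutant, so the sum does not stand for a fall in all 8. All 8 markers of elongating spermatids were lower in both mutants, and their summed level fell from between 14804.5 and 20432 CPM in WT to between 1748 and 4362 in KO and between 2297 and 3568 in KI. The 6 Leydig cell markers were higher in both, with sums of 9.88 to 20.6 CPM in WT, 30.4 to 53.6 in KO and 13.4 to 68.9 in KI. Of the other lists, 4 of 10 spermatocyte markers were higher and 2 lower in KO, and 3 and 1 in KI, and 2 of 7 tested spermatogonium markers were higher in KO and 1 in KI. For Sertoli cells 1 of 8 was lower in each, for endothelium 1 of 4 and for macrophages 1 of 4 higher in each, for peritubular cells 1 of 3 higher in KO and 1 lower in each, and for red blood cells 1 of 1 higher in KI. Among all genes tested, 16.4% were higher and 13.5% lower in KO, and 16.1% and 15.4% in KI. No marker of any list was at the floor of 3 counts in every library. The part of these cell types in the results below was not tested, and fewer cells of a type cannot be told apart from less RNA per cell.

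In WT, 3 members held most of the alpha and beta tubulin RNA. Tuba3a stood at 766 ± 211 CPM per kilobase (SD, n = 6), Tuba3b at 712 ± 225 and Tubb4b, a beta tubulin of axonemes, at 703 ± 73.2, levels that did not differ from each other beyond their spread and that ranked 37, 41 and 42 among the 21058 genes tested. Next came the alpha tubulin Tuba8 at 97.5 ± 16.2 CPM per kilobase. The most abundant enzymes were the glutamylase Ttll13 at 88.9 ± 28.6, the deglutamylase Agbl5 at 63.5 ± 8.71, the glycylase Ttll10 at 62.2 ± 12.1 and the glutamylase Ttll6 at 48.6 ± 18.5 CPM per kilobase, and the lowest of these, Ttll6, stood at the percentile 94.0 of genes tested. At the other end, Ttl stood at 0.0746 ± 0.031 CPM per kilobase, with 4 to 20 counts in any library, and Ttll12 at 0.348 ± 0.105. Tubb1, Tubb2b, Tubb4a and Tubg2 had at most 6, 5, 4 and 13 counts in any library and did not pass the filter on low counts, which left 40 members. Tuba1a, Tuba1b, Tubb2a, Tubb3 and Tubb5, tubulins of somatic and neuronal cells, lay between 1.20 and 2.58 CPM per kilobase, and Tubal3 at 0.419. Tuba1c at 13.2 and Tubb6 at 9.94 CPM per kilobase lay above them.

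**Figure D1:**
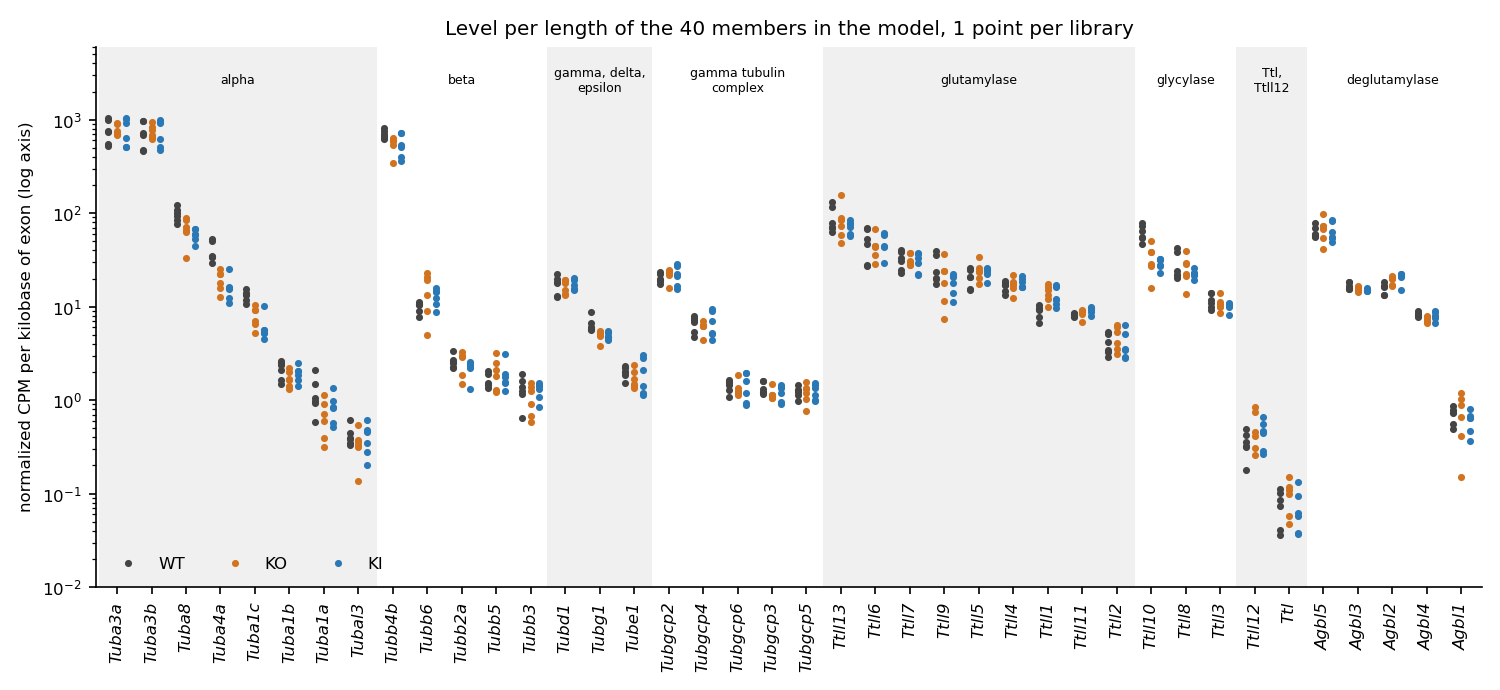
Normalized CPM per kilobase of exon, on a log axis, of the 40 members in the model, with 1 point for each library and WT, KO and KI side by side. Tubb4b, Tuba3b and Tuba3a have WT means of 703 to 766 CPM per kilobase, and Ttl lies lowest at 0.0746.

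In KO compared to WT, 6 of the 40 members were lower and 3 were higher by any amount (edgeR's quasi-likelihood test, Benjamini-Hochberg adjusted p under 0.1 over all genes tested). These are shares of 15% and 7.5%, where 13.5% of all genes tested were lower and 16.4% were higher. The lower members were Tuba4a, Tuba1c, Tuba8, Tuba1a, Ttll10 and Tubg1, and the higher were Ttll1, Tubb6 and Agbl2. In KI, 5 members were lower and 2 were higher, or 12.5% and 5%, against 15.4% and 16.1% of all genes. All 7 of those in KI were also called in KO in the same direction, and both comparisons share the WT libraries. The count of members called was thus close to that of other genes for falls and below it for rises. The median log2 fold change of the members was -0.08 in KO and -0.05 in KI, beside 0.03 and 0.05 over all genes tested. Past 1 log2 unit no member was called in either direction, by edgeR's glmTreat or by DESeq2, and 0 members had an unadjusted p under 0.05 in that test in KO or in KI. Among all genes, 0.598% were higher and 1.13% lower by more than 1 log2 unit in KO, and 0.522% and 1.43% in KI. By role, 4 of 8 alpha tubulins were lower in KO and 3 in KI, and 0 were higher.

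**Figure D2:**
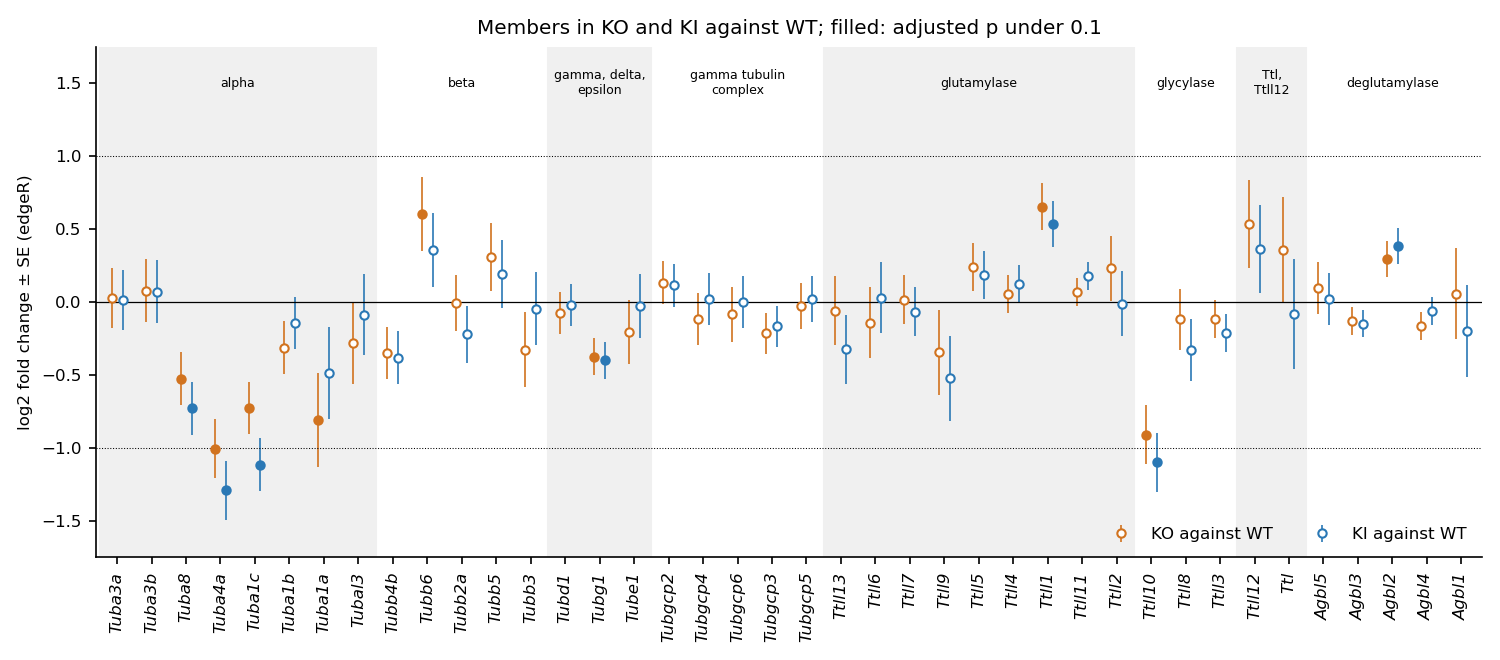
Log2 fold change in KO (orange) and KI (blue) against WT for the 40 members, with standard errors derived from edgeR's F statistic. Filled points have an adjusted p under 0.1, and dotted lines mark 1 log2 unit. Tuba4a is the lowest member in both comparisons, at -1.01 in KO and -1.29 in KI.

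Tuba4a (ENSMUSG00000026202, chromosome 1, 75214228 to 75219865), the alpha tubulin made without a final tyrosine, ranged from 107 through a median of 128 to 196 CPM in WT. In KO it ranged from 46.7 through 73.9 to 94.6 CPM and in KI from 40.5 through 57.9 to 92.7. Every KO and KI library lay below every WT library. The fitted log2 fold change was -1.01 (SE 0.20, adjusted p = 0.000793) in KO and -1.29 (SE 0.20, adjusted p = 5.43e-05) in KI. The highest KI value was that of the library labelled KI 4, and without it the change in KI was -1.46 (SE 0.19).

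Tuba1c (ENSMUSG00000043091, chromosome 15, 99029891 to 99038110) showed the same separation. Its lowest, median and highest libraries were 24.5, 30.8 and 35.0 CPM in WT, 11.9, 18.6 and 23.8 in KO, and 10.3, 12.5 and 23.03 in KI. No KO or KI library reached the lowest WT library. The log2 fold change was -0.73 (SE 0.18, adjusted p = 0.00496) in KO and -1.11 (SE 0.18, adjusted p = 8.69e-05) in KI. As for Tuba4a, the library labelled KI 4 was the highest of KI, and the change without it was -1.32 (SE 0.16).

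Tuba8 (ENSMUSG00000030137, chromosome 6, 121210696 to 121226854), an alpha tubulin enriched in testis and muscle, was at 172, 220 and 274 CPM in the lowest, median and highest WT libraries, at 75.4, 155 and 200 in KO and at 101, 134 and 155 in KI. KO overlapped WT, with 4 of its 6 libraries below the lowest of WT, while all 6 KI libraries lay below. The log2 fold change was -0.53 (SE 0.18, adjusted p = 0.0390) in KO and -0.73 (SE 0.18, adjusted p = 0.00475) in KI. With close pairs summed and the library labelled KI 4 left out, the values were -0.62 (SE 0.23, adjusted p = 0.107) and -0.70 (SE 0.27, adjusted p = 0.131), and neither call held.

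Tuba1a (ENSMUSG00000072235, chromosome 15, 98949837 to 98953703), an alpha tubulin best known from neurons, was scarce, at 1.06 to 3.82 CPM in WT (median 1.84), 0.563 to 2.04 in KO (median 1.17) and 0.935 to 2.45 in KI (median 1.499). The 3 ranges overlapped. Relative to WT, the log2 fold change was -0.81 (SE 0.32, adjusted p = 0.0740) in KO and -0.48 (SE 0.32, adjusted p = 0.296) in KI. The KO call was lost when any of WT 3, WT 4, KO 1, KO 4, KO 5 or KO 6 was left out, with values from -0.83 to -0.57 and adjusted p from 0.105 to 0.225.

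Tuba3a (ENSMUSG00000067702, chromosome 6, 125278274 to 125286042) and Tuba3b (ENSMUSG00000067338, chromosome 6, 145615757 to 145621479), the testis alpha tubulins, did not pass the test in either mutant. Tuba3a ranged from 800 through 1124 to 1556 CPM in WT, from 1031 through 1110 to 1387 in KO, and from 765 through 1179 to 1563 in KI. Within WT, close pairs stood apart from each other, with 800 and 835 CPM in WT 1 and 2, 1556 and 1493 in WT 3 and 4, and 1118 and 1130 in WT 5 and 6. The log2 fold change of Tuba3a was 0.03 (95% interval -0.40 to 0.45) in KO and 0.01 (-0.41 to 0.44) in KI, so that a fall like that of Tuba4a in either lies outside the interval. Tuba3b gave 0.08 (-0.37 to 0.53) and 0.07 (-0.38 to 0.52). The other alpha tubulins, Tuba1b and Tubal3, had values between -0.31 and -0.09 with no call.

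Among the beta tubulins, Tubb4b (ENSMUSG00000036752, chromosome 2, 25222160 to 25224702) ranged from 1309 through 1441 to 1705 CPM in WT, from 715 through 1240 to 1337 in KO, and from 756 through 1087 to 1510 in KI. In KO 5 of 6 libraries and in KI 4 of 6 lay below the lowest WT library. The log2 fold change was -0.35 (SE 0.18, adjusted p = 0.178) in KO and -0.38 (SE 0.18, adjusted p = 0.131) in KI, and neither passed the test. It did pass when only WT and KO were modelled, and in KI when KI 1, KI 2 or KO 3 was left out. Tubb6 (ENSMUSG00000001473), a minor beta tubulin here, ranged from 13.6 through 18.5 to 19.7 CPM in WT, from 8.79 through 28.7 to 40.7 in KO and from 15.5 through 23.3 to 27.6 in KI. The KO libraries lay on both sides of the WT range, 4 above it and 1 below. In the model the log2 fold change was 0.60 (SE 0.25, adjusted p = 0.0926) in KO and 0.36 (SE 0.25, adjusted p = 0.344) in KI. The KO call was lost without any of 11 libraries, namely WT 1 to 6, KO 1, KO 4, KO 5, KO 6 or KI 6, with values from 0.44 to 0.64 and adjusted p from 0.103 to 0.227. Tubb2a, Tubb3 and Tubb5 had log2 fold changes between -0.33 and 0.31 with no call.

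Of the tubulins that do not enter the microtubule wall, Tubg1 (ENSMUSG00000035198, chromosome 11, 101119938 to 101126419), the gamma tubulin of centrosomes, was lower in both mutants. It lay between 12.8 and 19.8 CPM in WT, between 8.55 and 12.4 in KO and between 9.89 and 12.6 in KI, with no overlap with WT in either. Against WT the log2 fold change was -0.37 (SE 0.13, adjusted p = 0.0347) in KO and -0.40 (SE 0.13, adjusted p = 0.0234) in KI. Without WT 2, the highest library, the KO value was -0.27 with an adjusted p of 0.119. Tubd1, the delta tubulin needed for centriole triplets, had the most counts per length of this group, at 26.4, 37.3 and 46.0 CPM in the lowest, median and highest WT libraries, 27.6, 34.1 and 39.7 in KO and 30.9, 33.8 and 41.6 in KI. All of its KO and KI values lay within the WT range. The fitted log2 fold change was -0.08 (-0.38 to 0.22) in KO, and Tube1, the epsilon tubulin, gave -0.21 (-0.66 to 0.25), neither called. The 5 complex proteins that hold gamma tubulin gave no call either. Tubgcp2, a core subunit and the most abundant of them, was at 69.4, 77.6 and 94.5 CPM in WT, 63.6, 91.9 and 99.1 in KO, and 61.6, 86.4 and 113 in KI, again lowest, median and highest. The log2 fold changes of Tubgcp2, Tubgcp3, Tubgcp4, Tubgcp5 and Tubgcp6 lay between -0.22 and 0.13 over both comparisons.

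Of the 9 glutamylases, Ttll1 rose in both mutants and the other 8 did not pass the test. Ttll1 (ENSMUSG00000022442, chromosome 15, 83483769 to 83510893), the catalytic subunit of a polyglutamylase complex of axonemes, ranged from 19.3 through 27.2 to 30.5 CPM in WT, from 28.8 through 41.3 to 51.3 in KO and from 27.9 through 34.7 to 49.9 in KI. In each mutant 5 of 6 libraries lay above the highest WT library. Relative to WT, the log2 fold change was 0.65 (SE 0.16, adjusted p = 0.00469) in KO and 0.54 (SE 0.16, adjusted p = 0.0169) in KI. With close pairs summed and the library labelled KI 4 left out, the KI value was 0.58 with an adjusted p of 0.149. Ttll13, which lengthens glutamate chains, had the most counts per length of the glutamylases, at 274, 325 and 569 CPM in the lowest, median and highest WT libraries, 209, 341 and 681 in KO, and 245, 316 and 361 in KI. The KO libraries spread over more than the WT range, and the log2 fold change was -0.06 (-0.55 to 0.43) in KO and -0.32 (-0.81 to 0.17) in KI. Ttll9, known for its need in flagellar beating, had the lowest values of the group, -0.35 (SE 0.29, adjusted p = 0.449) in KO and -0.52 (SE 0.29, adjusted p = 0.210) in KI, and its KO libraries ran from 25.5 to 128 CPM. Ttll5 gave 0.24 and 0.18, and Ttll2, Ttll4, Ttll6, Ttll7 and Ttll11 lay between -0.14 and 0.23, all with adjusted p of 0.179 or more.

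The glycylases did not move alike. Ttll10 (ENSMUSG00000029074, chromosome 4, 156034840 to 156059414), which lengthens glycine chains, ranged from 188 through 240 to 315 CPM in WT, from 63.3 through 133 to 201 in KO and from 90.9 through 119 to 130 in KI. All 6 KI libraries and 5 of 6 KO libraries lay below the lowest WT library. In the model the log2 fold change was -0.91 (SE 0.20, adjusted p = 0.00184) in KO and -1.10 (SE 0.20, adjusted p = 0.000280) in KI. Ttll3 and Ttll8, which place the first glycine, gave -0.12 (-0.39 to 0.15) and -0.12 (-0.56 to 0.32) in KO, and -0.21 (-0.48 to 0.06) and -0.33 (-0.77 to 0.11) in KI, with no call.

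Of the deglutamylases, Agbl2 was called and the other 4 were not. Agbl2 (ENSMUSG00000040812, chromosome 2, 90782727 to 90834437), which shortens long glutamate chains, lay between 88.0 and 122 CPM in WT, 111 and 143 in KO, and 99.5 and 150 in KI. The lowest KI value was the library labelled KI 4, and the other 5 KI libraries all lay above WT. Against WT the log2 fold change was 0.30 (SE 0.12, adjusted p = 0.0850) in KO and 0.39 (SE 0.12, adjusted p = 0.0233) in KI. The KO call was lost without any of 10 libraries, namely WT 1 to 5, KO 1, KO 4, KO 5, KO 6 or KI 6, with values from 0.25 to 0.31 and adjusted p of up to 0.215. Agbl5, which removes the glutamate at the branch point and is the most abundant of the group, was at 393, 422 and 552 CPM in the lowest, median and highest WT libraries, 293, 495 and 687 in KO and 345, 415 and 592 in KI. Its KO and KI ranges spanned that of WT, with log2 fold changes of 0.10 (-0.28 to 0.47) and 0.02 (-0.35 to 0.39). Agbl1, Agbl3 and Agbl4 lay between -0.20 and 0.06. Ttll12, the more abundant of the remaining pair, was at 0.731, 1.38 and 1.98 CPM in WT, 1.04, 1.749 and 3.45 in KO and 1.08, 1.85 and 2.67 in KI, and Ttl was at 0.212 to 0.663, 0.280 to 0.902 and 0.221 to 0.798 CPM. Neither gene passed the test, and the KO intervals ran from -0.09 to 1.16 for Ttll12 and from -0.40 to 1.11 for Ttl.

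**Figure D3:**
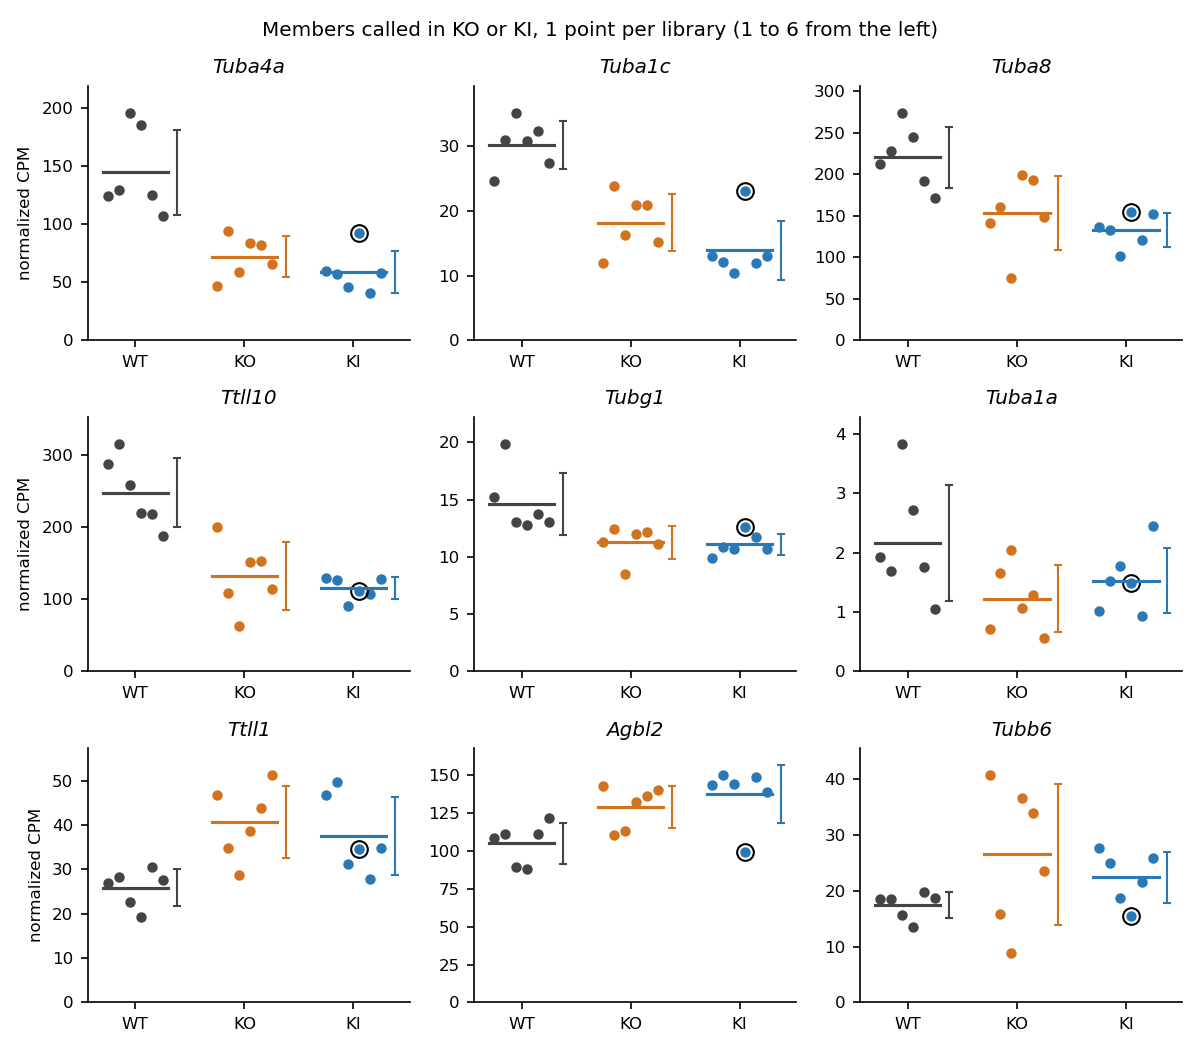
Normalized CPM of the 9 members called in KO or KI, with 1 point per library in label order, a line at the mean and a bar of 1 SD beside it. The library labelled KI 4 is ringed. For Tuba4a, Tuba1c and Tubg1 no KO or KI library reaches the lowest WT library.

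Counted over members, 3 of 40 had KO libraries wholly below WT (Tuba4a, Tuba1c and Tubg1) and 5 had KI libraries wholly below it (also Tuba8 and Ttll10), and 0 lay wholly above. Among all genes tested, 6.44% lay wholly below WT in KO and 7.91% in KI, and 6.62% and 5.97% wholly above. With close pairs summed and the library labelled KI 4 left out, the calls that remained were Tuba4a, Tuba1c, Ttll10 and Ttll1 in KO and Tuba4a, Tuba1c and Ttll10 in KI.

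The make-up of the alpha tubulin RNA, as shares of CPM per kilobase and given with no test, followed from these values. Tuba3a and Tuba3b together held 90.2% ± 2.28 (SD, n = 6) in WT, from 87.2% to 92.4%, 93.9% ± 1.60 in KO, from 91.8% to 96.1%, and 94.5% ± 1.25 in KI, from 93.2% to 96.0%. Tuba8 held 6.28% ± 1.68 in WT, 4.21% ± 1.37 in KO and 3.89% ± 0.99 in KI. Tuba4a held 2.45% ± 0.45, 1.19% ± 0.25 and 1.02% ± 0.22, with no overlap of either mutant with WT. The summed level of the alpha tubulins was 1631 ± 454 CPM per kilobase in WT, 1629 ± 219 in KO and 1604 ± 489 in KI, differences far smaller than the spread. Tubb4b held 97.8% ± 0.31 of the beta tubulin RNA in WT, 96.4% ± 0.82 in KO and 96.6% ± 0.63 in KI. Ttll10 held 61.3% ± 2.92 of the glycylase RNA in WT, 46.8% ± 3.51 in KO and 47.0% ± 2.65 in KI, and every mutant library lay below every WT library.

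**Figure D4:**
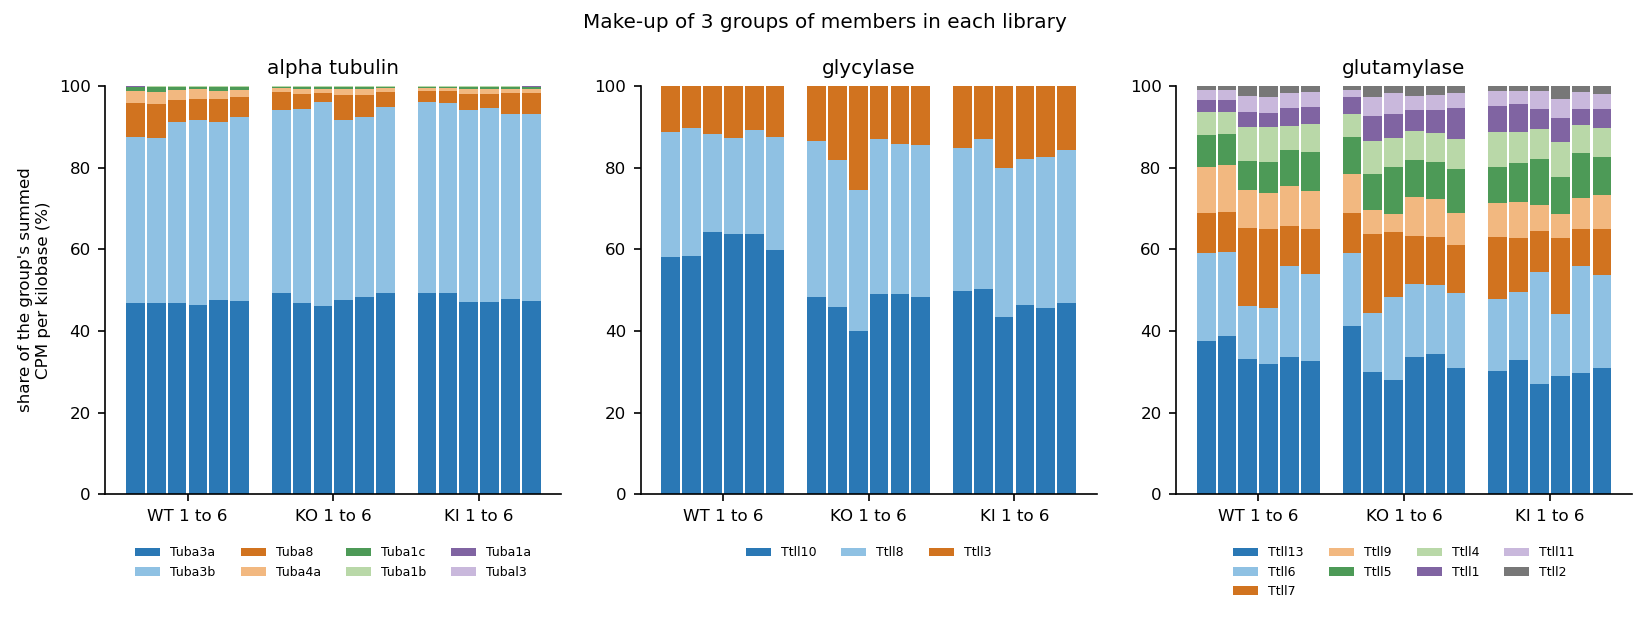
Share of each member in the summed CPM per kilobase of its group, for alpha tubulins, glycylases and glutamylases, with 1 bar per library. Ttll10 makes up 58.2% to 64.3% of the glycylase RNA in WT and 40.02% to 50.3% in the mutants, while Tuba3a and Tuba3b fill most of the alpha tubulin bars in all 18 libraries.

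In KI compared to KO, 0 of the 40 members were called, where 0.0760% of all genes were higher and 0.0237% lower. DESeq2 also called 0, and 1 member, Tuba1c, had an unadjusted p under 0.05. Its log2 difference was -0.39 (95% interval -0.76 to -0.01), and -0.59 (SE 0.15, adjusted p = 0.131) without the library labelled KI 4. For Tuba4a the difference was -0.28 (-0.70 to 0.13), for Ttll10 -0.19 (-0.60 to 0.22) and for Ttll1 -0.12 (-0.45 to 0.21). Without the library labelled KI 4 the difference of Tuba4a was -0.46 (-0.85 to -0.07, adjusted p = 0.452), that of Ttll10 -0.18 (-0.63 to 0.26) and that of Ttll1 -0.10 (-0.45 to 0.26).

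Promoters are shown for the 3 members that were lower in both mutants also with close pairs summed. Each runs from 250 bases before to 50 bases after a RefSeq transcript start on GRCm38.p6. For Ttll10 and Tuba4a, which lie on the minus strand, that start is inside the counted gene. The counted genes extend further upstream, to position 156059414 for Ttll10 and 75219865 for Tuba4a. Which start gave the counted RNA was not tested. The letters TGACG, the core of the cAMP response element bound by CREM in spermatids, and GTTGCC, a core of the X box bound by RFX factors, were searched on both strands and stand in capitals, as do matches to the full element TGACGTCA, which contains TGACG, and to TATAAA.
Tuba4a, chr1:75219245-75219544, minus strand: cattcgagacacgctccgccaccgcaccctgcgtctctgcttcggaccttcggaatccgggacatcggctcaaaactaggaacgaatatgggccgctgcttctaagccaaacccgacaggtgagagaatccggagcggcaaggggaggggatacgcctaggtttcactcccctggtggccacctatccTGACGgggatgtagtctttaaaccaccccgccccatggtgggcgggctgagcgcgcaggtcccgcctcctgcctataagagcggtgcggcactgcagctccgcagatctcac
Tuba1c, chr15:99029641-99029940, plus strand: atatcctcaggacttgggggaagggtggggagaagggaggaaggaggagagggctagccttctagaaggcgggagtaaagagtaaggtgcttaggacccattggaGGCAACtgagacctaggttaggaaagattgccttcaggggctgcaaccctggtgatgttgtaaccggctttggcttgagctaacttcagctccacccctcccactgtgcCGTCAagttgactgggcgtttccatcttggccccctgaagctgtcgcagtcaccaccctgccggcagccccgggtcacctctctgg
Ttll10, chr4:156050768-156051067, minus strand: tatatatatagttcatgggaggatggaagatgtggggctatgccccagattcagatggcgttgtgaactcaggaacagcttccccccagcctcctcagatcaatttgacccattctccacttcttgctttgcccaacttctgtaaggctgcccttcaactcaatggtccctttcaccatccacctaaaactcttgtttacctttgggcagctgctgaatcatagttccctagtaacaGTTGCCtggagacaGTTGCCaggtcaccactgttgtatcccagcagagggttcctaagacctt
Tuba4a holds TGACG starting 62 bases before the start, Tuba1c holds TGACG at 36 and GTTGCC at 145 bases before it, and Ttll10 holds GTTGCC 2 times around the start. Promoters were found for 38 of the 44 members, 43 in all. TGACG was in 10 of them (23.3%) and in 20.8% of all 32817 promoters, GTTGCC in 9 (20.9%) and 12.5%, TGACGTCA in 1 (2.33%) and 1.79%, and TATAAA in 3 (6.98%) and 13.6%. Such matches describe the letters alone.

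Other genes of the same pathway were taken from a list of 39, of which 38 were tested. In KO 7 were higher (18.4%) and 2 lower (5.26%), and in KI 8 were higher (21.1%) and 4 lower (10.5%). Over all genes tested, the shares higher and lower were 16.4% and 13.5% in KO and 16.1% and 15.4% in KI. With close pairs summed and the library labelled KI 4 left out, these counts were 3 and 1 in KO and 1 and 1 in KI. Vash1, a tubulin carboxypeptidase that removes the last tyrosine, ranged from 3.31 through 4.45 to 4.85 CPM in WT, from 5.28 through 7.87 to 9.17 in KO and from 4.47 through 6.79 to 7.64 in KI. KO did not overlap WT, and the log2 fold change was 0.81 (SE 0.17, adjusted p = 0.000981) in KO and 0.61 (SE 0.17, adjusted p = 0.00843) in KI. Its partner Svbp gave -0.45 (SE 0.19, adjusted p = 0.0821) and -0.47 (SE 0.19, adjusted p = 0.0661). Vash2, the other such carboxypeptidase on the list, was more abundant, at 28.0 CPM per kilobase in WT against 1.65 for Vash1. Vash2 gave -0.26 (SE 0.26, adjusted p = 0.537) in KO and -0.43 (SE 0.26, adjusted p = 0.262) in KI, with no call. The Svbp call was lost without any of WT 1, WT 2, WT 5, KO 2, KO 3 or KO 4 in KO (-0.47 to -0.33) and without any of WT 1, WT 2, WT 3, WT 5, KI 3, KI 4 or KI 5 in KI (-0.46 to -0.39). Tpgs2, a subunit of the Ttll1 complex, ranged from 92.4 through 106 to 140 CPM in WT, from 38.3 through 79.8 to 136 in KO and from 42.1 through 58.1 to 92.5 in KI. It was lower in KI (-0.83, SE 0.24, adjusted p = 0.0134) and did not pass in KO (-0.54, SE 0.24, adjusted p = 0.113). Nicn1, another subunit of that complex, ranged from 14.5 to 22.3 CPM in WT (median 18.03), 22.1 to 32.6 in KO (median 23.7) and 21.6 to 32.6 in KI (median 27.0), and rose by 0.45 and 0.55. In KI, then, 1 subunit of that complex was lower and another higher. The other subunits on the list, Tpgs1 and Lrrc49, did not pass the test in either mutant.

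Of the remaining pathway genes with a change of at least 0.5 log2 units, Haus7, of the augmin complex that branches microtubules, ranged from 5.92 through 8.09 to 9.9995 CPM in WT, 9.26 through 15.6 to 16.52 in KO and 9.77 through 11.8 to 13.6 in KI, with log2 fold changes of 0.80 (SE 0.15, adjusted p = 0.000515) and 0.55 (SE 0.15, adjusted p = 0.0106). Fignl1, an AAA protein related to the severing enzyme fidgetin, ranged from 23.1 through 32.9 to 39.7 CPM in WT, 36.7 through 46.1 to 52.8 in KO and 39.2 through 44.8 to 52.5 in KI, and changed by 0.52 and 0.50. Arl2, a GTPase of tubulin folding, ranged from 8.19 through 11.1 to 12.9 CPM in WT, 5.65 through 7.91 to 9.32 in KO and 4.75 through 7.04 to 8.72 in KI, and changed by -0.48 and -0.64. Each of these 3 genes passed the test in both mutants. With close pairs summed and the library labelled KI 4 left out, Haus7, Fignl1, Arl2 and Vash1 kept the call in KO and Arl2 and Vash1 in KI, where Haus7 (0.58, adjusted p = 0.127), Fignl1 (0.48, adjusted p = 0.167), Nicn1 (0.55, adjusted p = 0.124) and Tpgs2 (-0.76, adjusted p = 0.241) lost it. Nicn1 also lost it in KO (0.49, adjusted p = 0.115). Agtpbp1, the deglutamylase outside the Agbl symbols, gave -0.06 (adjusted p = 0.823) and -0.09 (adjusted p = 0.712).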

How the data were processed

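RNA of round spermatids from WT, KO and KI mice was sequenced, with 6 libraries per genotype (Takara Pico kit, total RNA, stranded). The authors deposited whole-number counts per gene, made with STAR 2.7.8a and featureCounts (Subread 2.0.1) on GRCm38 with GENCODE M18 after trimming with cutadapt 3.4. By their account multi-mapping reads were not counted and duplicates were kept. Totals were 18766971 to 26776555 counts per library, where a floor of 3 counts equals 0.112 to 0.160 CPM. This floor speaks only to the error of counting, as PCR copies were not told apart by molecular identifiers.

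Groups followed the labels. Counts were filtered with filterByExpr, scaled by TMM and fitted over all 18 libraries with genotype as the term in edgeR 4.0.16 (R 4.3.3), using the quasi-likelihood test against 0 and glmTreat against 1 log2 unit. P-values are two-sided and were Benjamini-Hochberg adjusted over 21058 genes, with a threshold of 0.1. Intervals are 95%. The fit was tested on simulated counts for KO against WT. It recovered 9 of 75 changes of 0.5 log2 units, 48 of 65 of 1 and 53 of 54 of 2. False calls numbered 13. Fewer genes were changed in the simulation than were called in the data. Symbols and sequences came from GENCODE M21 and RefSeq. One coding end is not reported here. Alternatives were DESeq2 1.42.0, DESeq2 size factors, other filters, the 2 genotypes alone, a threshold of 0.05, the replicate number as a block, summed close pairs, and each library left out. Values were given for members called with a log2 fold change of at least 0.5, for the most abundant member of each role, and for pathway genes by the same limit, and other members by range. The value rule does not cover Tuba3b, Tubg1, Agbl2, Tube1, Ttll3, Ttll5, Ttll8, Ttll9, Ttl, Svbp, Vash2, Pgk2 and Agtpbp1. Their values were added after they had been seen. The members and lists were chosen with earlier results of these data known.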

Additional observations from a re-analysis of the deposited data

Results flagged for a closer look

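In 13 of 129 groups of 6 libraries, 1 library stood apart from the other 5 by a share of the group's range above Dixon's 95% value, where chance gives about 1 in 20. The library labelled KI 4 stood apart in 4 of them, with Tuba1c at 23.03 CPM (10.3 to 13.02 in the other KI libraries), Tuba4a at 92.7 (40.5 to 60.0), Tubb5 at 10.5 (4.21 to 6.35) and Agbl2 at 99.5 (139 to 150). The values of Tuba1c, Tuba4a and Tubb5 lay within the KO range, and that of Agbl2 below the KO range and within that of WT. Ddx25 in that library was also at a KO level.

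KO 3 stood apart in 5, with Tubb4b at 715 CPM (1120 to 1337 in the other KO libraries), Tubgcp2 at 63.6 (86.1 to 99.1), Tubgcp3 at 12.9 (8.93 to 9.82), Tubgcp6 at 21.4 (13.1 to 15.6) and Tubg1 at 8.55 (11.1 to 12.4). The remaining 4 were Tubb2a in KI 3 at 2.14 CPM (3.51 to 4.07), Tubgcp4 in KO 2 at 36.9 (51.8 to 59.6), Tubg1 in WT 2 at 19.8 (12.8 to 15.3) and Ttll11 in KO 1 at 27.7 (33.6 to 37.0). The cause was not tested.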

How the results depend on the processing

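Over 26 alternatives, 14 counts of members or pathway genes gave 364 values, of which 329 stayed within 1.5 times the reported count and 35 did not. The reported counts of members in KI against KO and past 1 log2 unit were 0. Where such a count stayed at 0 it was scored as unchanged, so the 329 include values that repeat a 0. Of 416 values of single called members, 369 kept their call, 47 lost it and 0 reversed. Tuba4a, Tuba1c and Ttll10 kept it in both mutants and Ttll1 in KO under every alternative. The 3 members higher in KO became 1 with DESeq2, with DESeq2 size factors, with no filter on low counts and at a threshold of 0.05, and 1 to 3 when single libraries were left out. With close pairs summed and the library labelled KI 4 left out, members higher and lower were 1 and 3 in KO and 0 and 3 in KI, and pathway genes were 3 and 1 in KO and 1 and 1 in KI. This leaves fewer libraries. The 2 pathway genes lower in KO became 4 with only WT and KO modelled, 1 at a threshold of 0.05, and 1 to 3 without single libraries. The 4 lower in KI became 2 with no filter and at 0.05, and 2 to 5 without single libraries. Other causes were not tested. Correlations of deviations from the genotype means were above 0.1 for 7 of 18 pairs of libraries with the same replicate number (range -0.44 to 0.48). Pairs with different numbers were not compared, so these values cannot decide whether the replicate numbers pair the libraries. With the replicate number as a block, members higher and lower were 2 and 6 in KO, 2 and 5 in KI and 0 and 0 in KI against KO, and pathway genes were 7 and 3 in KO and 7 and 4 in KI.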

Other observations

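The pseudogene Tubb4b-ps1, outside the family as defined, was counted at 51.1 to 87.8 CPM in WT, 26.6 to 53.1 in KO and 30.3 to 50.04 in KI. Its log2 fold change was -0.71 (edgeR, adjusted p = 0.00599) in KO and -0.84 (adjusted p = 0.00131) in KI, beside -0.35 and -0.38 for Tubb4b, neither of which passed the test. The difference between gene and pseudogene was not tested.

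The ratio of summed alpha to summed beta tubulin CPM per kilobase was 2.24 ± 0.45 (SD, n = 6) in WT, 2.97 ± 0.83 in KO and 2.87 ± 0.38 in KI, given with no test. The groups overlapped.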
